A study of Mus musculus with 48 samples.

Results

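The transcripts of 10 genes that hold back or drive the passage from G1 to S phase were followed through reprogramming of mouse embryonic fibroblasts (MEFs) to induced pluripotent stem cells (iPSCs). They were the CDK inhibitor genes *Cdkn2a*, *Cdkn2b* and *Cdkn1a*, the p53 gene *Trp53* with its target genes *Mdm2* and *Ccng1*, and the G1 cyclin genes *Ccnd1*, *Ccnd2*, *Ccnd3* and *Ccne1*. The genes were taken by symbol from the 24264 transcripts of the count table, each had 1 row, and all 10 passed the filter on low counts. The study compared reprogramming driven by MKOS and OKMS, doxycycline-inducible polycistronic cassettes that carry *Myc*, *Klf4*, *Oct4* and *Sox2* in the order of the letters. RNA was read from the 5′ end of transcripts with the STRT method in 48 libraries of 20 conditions.

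In MKOS and OKMS cells the cassette was placed in the *Sp3* locus of TNG ESCs, an embryonic stem cell line with GFP in the *Nanog* locus, together with a transactivator under the ubiquitous CAG promoter. The OKMS cassette held a *Klf4* that lacks the first amino acids. MKOS and OKMS MEFs had a 129 background and came from midgestation chimeric embryos, so that transgenic cells were mixed with host cells, and for reprogramming they were diluted with wild-type (WT) MEFs. Cells were treated with doxycycline and vitamin C and sorted on day 10, although the culture protocol in the labels also allows a longer treatment. The sorted conditions had 3 libraries each. They were 2NG- (CD44 low, ICAM1 low, *Nanog*-GFP-), 3NG- (CD44 low, ICAM1 high, *Nanog*-GFP-) and 3NG+ (the same with *Nanog*-GFP+) cells that were E-CAD+ from both cassettes, and 2NG- and 3NG- cells that were E-CAD- from OKMS. E-CAD marks cells past the mesenchymal-to-epithelial transition. Every unsorted condition had 2 libraries. MEFs were WT or carried either cassette, ESCs were E14 and TNG cells and TNG cells with either cassette, and iPSC clones of each cassette were labelled -dox (without doxycycline) or 2i. The last condition was the iPSC line labelled D6. It is taken here to be D6s4B5, for which the study reports a single *piggyBac* insertion of MKOS.

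In G1, D-type cyclins activate CDK4 and CDK6, and cyclin E activates CDK2. Together these kinases phosphorylate RB and release E2F factors, which switch on genes of DNA replication. The INK4 proteins p16 (from *Cdkn2a*) and p15 (from *Cdkn2b*) block CDK4 and CDK6, and p21 (from *Cdkn1a*) binds cyclin-CDK complexes, CDK2 complexes among them. *Cdkn2a* also encodes ARF, which restrains MDM2, the ubiquitin ligase that degrades p53, and p53 in turn switches on *Cdkn1a*, *Mdm2* and *Ccng1*. The INK4-ARF locus and the p53 pathway are known as barriers to reprogramming of fibroblasts, and pluripotent cells are known for a short G1 phase with high cyclin E.

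The libraries held 1429717 to 14174725 reads on transcripts (median 6243254.5), and 3 reads corresponded to 0.212 to 2.10 CPM (counts scaled to the same number of transcript reads in every library). Levels below are CPM, floors cover counting error only, and ± is the standard error of the fit. Summed fibroblast markers were 3193 to 5916 CPM in the 6 MEF libraries and 5.23 to 33.2 CPM in the 18 iPSC and ESC libraries, and summed pluripotency markers were 2.57 to 12 CPM and 10999 to 23559 CPM. All 11 fibroblast and all 10 pluripotency markers were in the table. All sorted libraries also held reads of macrophage markers, with 8 counted (*Emr1*, *Cd68*, *Lyz2* and others). Their sum was 27.8 to 1810 CPM in *Nanog*-GFP- cells, against 19.3 to 246 CPM in MEFs. It was 67.6 to 852 CPM in MKOS and 40.9 to 706 CPM in OKMS 3NG+ libraries, against 3.78 to 25.7 CPM in iPSCs and ESCs. From MKOS MEFs (28.1 and 19.3 CPM) to MKOS 2NG- cells (1520, 781 and 151 CPM), 4 of the 8 were called higher (median log2 fold change 4.76), *Lyz2* among them (5.83 ± 1.56, FDR 0.0047, edgeR), whereas from OKMS MEFs (124 and 116 CPM) to E-CAD+ or E-CAD- 2NG- cells 0 of 8 were called or had an unadjusted p under 0.05. Their part in the changes from MEFs to 2NG- cells, and in the steps to and from 3NG+ cells, was not tested. In bulk RNA, fewer cells of a type and less RNA per cell cannot be told apart.

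Replicate 3 of the sorted *Nanog*-GFP- conditions stood apart from replicates 1 and 2 in several of the genes. In 6 of these 6 conditions it had the lowest level of *Cdkn2a*, of *Cdkn1a*, of *Mdm2*, of *Ccng1*, of *Ccnd2* and of the summed macrophage markers. On the scale of log2(CPM + 1), replicate 3 lay below the mean of the other replicates by 0.56 to 2.34 for *Cdkn1a* and by 0.51 to 2.49 for *Mdm2*, and it lay above that mean by 0.14 to 0.94 for *Trp53*. *Ccne1* showed no such shift, at -0.17 to 0.17. Replicate 3 also had the highest summed pluripotency markers in the E-CAD+ *Nanog*-GFP- cells of both cassettes, and the lowest in the E-CAD- cells. In OKMS E-CAD+ cells it had 3436 CPM against 815 and 1015 CPM in 2NG- cells and 5737 CPM against 1660 and 2417 CPM in 3NG- cells. In MKOS it had 3688 CPM against 2293 and 2520 CPM in 2NG- cells and 9916 CPM against 7731 and 8935 CPM in 3NG- cells. Whether a replicate number stands for a shared experiment is not stated, and the part of these differences in the results below was not tested. The study's averaged profiles left out 7 of the 24 sorted libraries, namely replicate 3 of these 6 conditions and replicate 2 of OKMS 3NG+ cells. All comparisons were also made without them, which is called without the 7 libraries below. Comparisons of unsorted cells alone keep their libraries in that setting and change only through the fit shared by all conditions.

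**Figure D1:**
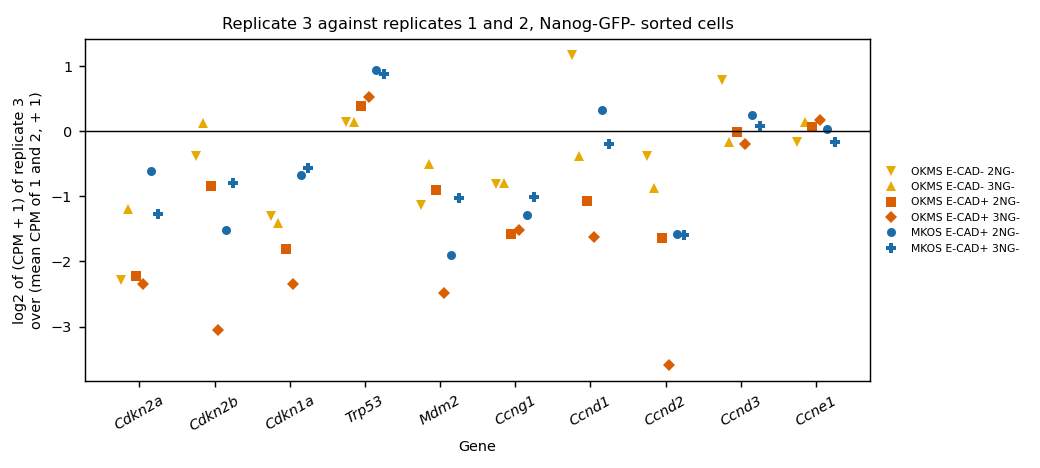
Each point is the log2 ratio of replicate 3 to the mean of replicates 1 and 2 (CPM + 1) for a gene in 1 of the 6 sorted *Nanog*-GFP- conditions, with symbols for the conditions. All points of *Cdkn2a*, *Cdkn1a*, *Mdm2*, *Ccng1* and *Ccnd2* lie below 0, all points of *Trp53* lie above 0, and those of *Ccne1* lie between -0.17 and 0.17.

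Conditions were compared with edgeR's quasi-likelihood test, fitted to 15630 transcripts and all 48 libraries, and a gene was called where its FDR (false discovery rate, Benjamini-Hochberg, over all these transcripts) did not exceed 0.05. Between ESCs and MEFs, all 10 genes were called, 8 lower and 2 higher in ESCs, and 60.1% of all transcripts tested were called in this comparison (30.4% lower and 29.6% higher). From MKOS MEFs to MKOS E-CAD+ 2NG- cells 5 genes were called, 4 lower and 1 higher (27% of all transcripts, 12% lower and 15% higher). From OKMS MEFs to OKMS E-CAD+ 2NG- cells 9 were called, 7 lower and 2 higher (29.2%, 13.5% lower and 15.7% higher), and from OKMS MEFs to OKMS E-CAD- 2NG- cells 7 (21.8%). The last pair of comparisons share the OKMS MEF libraries. Between 2NG- and 3NG- cells, 1 gene was called in MKOS (0.39% of all transcripts) and 0 in OKMS E-CAD+ cells (0.0384%), where 3 genes had an unadjusted p under 0.05 and DESeq2 also called 0. With the gain of *Nanog*-GFP, 2 genes were called in MKOS (1.58%) and 4 in OKMS (6.26%), all lower in 3NG+ cells, as were 1.02% and 3.21% of all transcripts. The difference between the cassettes was tested directly in this step and in the step from MEFs to E-CAD+ 2NG- cells, and 0 of the 10 genes were called by edgeR in either (0.0256% and 1.35% of all transcripts). In the step from MEFs, 3 genes had an unadjusted p under 0.05 and DESeq2 called 2, whereas in the gain of *Nanog*-GFP no gene reached either.

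**Figure D2:**
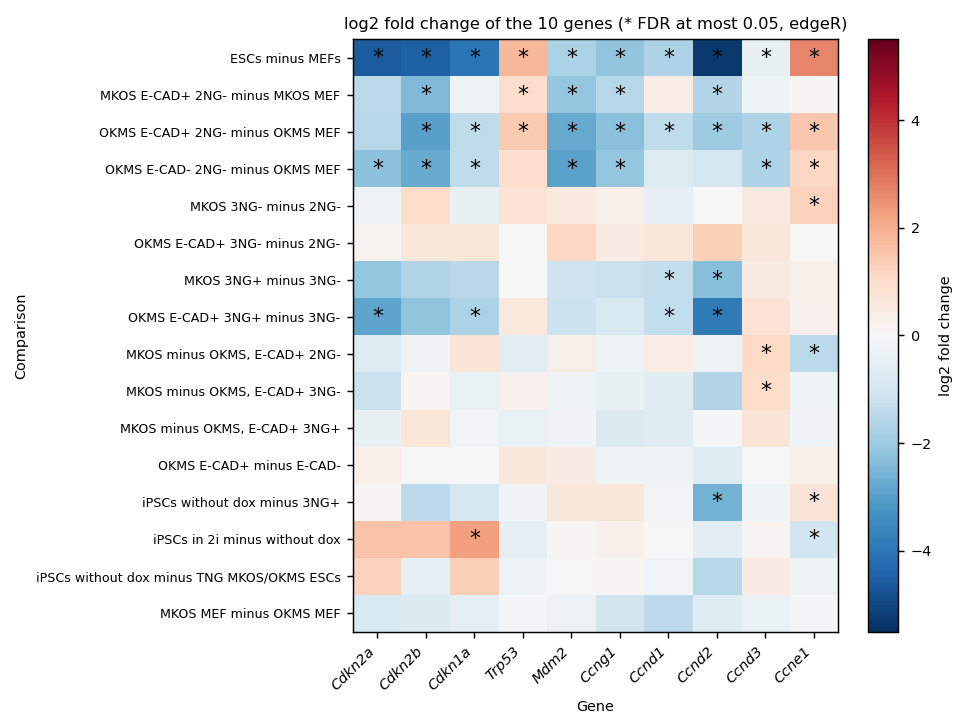
Color gives the log2 fold change of each of the 10 genes (columns) in 16 comparisons (rows), and stars mark an FDR of at most 0.05 with edgeR. All 10 genes carry a star between ESCs and MEFs, whereas the rows for OKMS 3NG- against 2NG- cells, for E-CAD+ against E-CAD- cells and for iPSCs against ESCs carry none.

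*Cdkn2a* and *Cdkn2b* are neighbors on chromosome 4. In the GRCm38 annotation *Cdkn2a* covers chr4:89274473-89294619 and *Cdkn2b* chr4:89306289-89311032, both on the minus strand. RefSeq gives *Cdkn2a* a pair of starts that lie 12427 bases apart, of which the first is the upstream one, on the ARF side, and the second serves p16. The start of *Cdkn2b* lies 16413 bases upstream of the first. The count table has 1 row for *Cdkn2a*, so reads of p16 and ARF cannot be told apart here. Both genes were lower in ESCs than in MEFs, although their calls differed in the steps between. The 250 bases before each start are shown to set the starts side by side. Capitals mark a match to any of the E2F words TTTCCCGC, TTTCGCGC, TTTGCCGC or TTTGGCGC on either strand.
Cdkn2a first start (chr4:89294620-89294869, minus strand): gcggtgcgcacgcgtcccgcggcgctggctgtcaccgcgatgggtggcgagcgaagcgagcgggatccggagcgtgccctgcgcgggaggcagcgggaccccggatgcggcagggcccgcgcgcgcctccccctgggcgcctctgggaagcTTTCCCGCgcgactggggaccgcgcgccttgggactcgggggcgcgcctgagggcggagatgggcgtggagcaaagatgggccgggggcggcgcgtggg
Cdkn2a second start (chr4:89282193-89282442, minus strand): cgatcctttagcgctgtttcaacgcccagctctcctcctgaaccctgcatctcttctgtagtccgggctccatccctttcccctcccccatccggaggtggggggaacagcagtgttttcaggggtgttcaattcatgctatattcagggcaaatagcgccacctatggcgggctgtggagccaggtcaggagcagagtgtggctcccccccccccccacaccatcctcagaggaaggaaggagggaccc
Cdkn2b (chr4:89311033-89311282, minus strand): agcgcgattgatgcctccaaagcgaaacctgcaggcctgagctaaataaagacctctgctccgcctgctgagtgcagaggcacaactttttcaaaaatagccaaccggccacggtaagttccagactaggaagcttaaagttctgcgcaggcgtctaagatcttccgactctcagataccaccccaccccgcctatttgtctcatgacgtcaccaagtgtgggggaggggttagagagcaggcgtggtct

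The first start of *Cdkn2a* had a CpG-rich window, with 40 CpG dinucleotides and 78.4% G and C, against 7 and 60% at the second start and 12 and 53.6% at *Cdkn2b*. The median of all 32851 RefSeq promoters of this length was 6 CpG dinucleotides and 52.4% G and C. Only the window of the first *Cdkn2a* start held an E2F word, 99 bases before the start, and 1.86% of all promoters hold 1 or more. Of the 11 promoters that RefSeq lists for 8 of the 10 genes, no other held an E2F word. The table had no entry for *Ccnd1* or *Ccnd2*.

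*Cdkn2a* was high in MEFs and low in ESCs. It was at 50.3 and 51.7 CPM in WT, 64.7 and 88.6 CPM in MKOS and 139.8 and 144 CPM in OKMS MEFs, and at 0.335 to 5.96 CPM (median 3.74 CPM) in the 8 ESC libraries. The groups did not overlap, and the log2 fold change was -4.58 ± 0.43 (SE, FDR 4.9e-12, edgeR). The OKMS MEF libraries were the highest of all 48 libraries, although MKOS and OKMS MEFs were not called different (log2 fold change -0.85 ± 0.70, FDR 0.96, edgeR). MKOS 2NG- cells had 24.6, 40.0 and 20.7 CPM, and all 3 libraries lay below all MEF libraries. The step from MKOS MEFs to 2NG- cells had a log2 fold change of -1.46 ± 0.64 and was not called (FDR 0.082, edgeR), but was called without the 7 libraries (-1.35, FDR 0.025), in the fit of the compared libraries alone (FDR 0.0063) and with no filter (FDR 0.00047). OKMS E-CAD+ 2NG- cells were at 55.7, 70.9 and 12.8 CPM, and the step from OKMS MEFs missed the threshold (-1.55 ± 0.63, FDR 0.060, edgeR). It was called in 5 of 12 alternatives (FDR 0.00017 to 0.226 over the 12). E-CAD- 2NG- cells of OKMS, at 30.9, 52.9 and 7.83 CPM, fell (-2.26 ± 0.64, FDR 0.0088, edgeR), and the call was lost without their replicate 3 (FDR 0.061).

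Between 3NG- and 3NG+ cells *Cdkn2a* fell in OKMS, and the MKOS step missed the threshold. OKMS E-CAD+ 3NG- cells had 73.6, 72.8 and 13.7 CPM and OKMS 3NG+ cells 2.52, 16.1 and 4.29 CPM, so that the libraries numbered 3 were 13.7 and 4.29 CPM. The groups overlapped only through 3NG- replicate 3 and 3NG+ replicate 2, the library with the fewest reads. *Cdkn2a* fell in this step (-2.92 ± 0.68, FDR 0.0060, edgeR), and it was not called without 3NG+ replicate 1 or 3 (FDR 0.076 and 0.051) or in the fit of the compared libraries alone (FDR 0.0502). MKOS 3NG- cells had 28.9, 33.4 and 12.3 CPM and MKOS 3NG+ cells 8.0, 1.78 and 5.45 CPM, which did not overlap. That step had a log2 fold change of -2.14 ± 0.64 at an FDR of 0.070 with edgeR, and DESeq2 called it (FDR 0.033). The difference between the cassettes was not called (0.77 ± 0.91, FDR 0.95, edgeR). Ordered by mean level, OKMS MEFs stood above all other conditions without overlap, and among the rest neighbors overlapped except between OKMS iPSCs in 2i (14.4 and 16.2 CPM) and D6 iPSCs (10.5 and 11.8 CPM).

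*Cdkn2b* fell by the 2NG- stage. MEFs had 24.0 to 62.0 CPM (median 44.4 CPM), and no sorted library was above 19.5 CPM. It was at 12, 3.25 and 2.03 CPM in MKOS 2NG- and at 3.41, 12.9 and 4.09 CPM in OKMS E-CAD+ 2NG- cells. *Cdkn2b* fell from MEFs to 2NG- cells in MKOS (-2.44 ± 0.86, FDR 0.031), in OKMS E-CAD+ (-3.00 ± 0.88, FDR 0.0082) and in OKMS E-CAD- cells (-2.79 ± 0.87, FDR 0.018, all edgeR). The MKOS call was lost without either MKOS MEF library or without 2NG- replicate 2 or 3 (FDR 0.056 to 0.140) or the 7 libraries (FDR 0.061), and the E-CAD- call without either OKMS MEF library or E-CAD- 2NG- replicate 1 or 3 (FDR 0.051 to 0.073). Sorted *Nanog*-GFP- libraries other than OKMS E-CAD+ 3NG- replicate 3 (0.942 CPM, 4 reads) kept 2.03 to 19.5 CPM, well above the floor of 3 reads. It had 0 reads in TNG OKMS ESC replicate 2, in MKOS iPSC -dox replicate 2 and in OKMS 3NG+ replicate 2, which allow up to 0.328, 0.532 and 2.10 CPM. ESCs were at 0 to 4.14 CPM and far below MEFs (-4.48 ± 0.57, FDR 7.7e-09, edgeR). MEFs were the top conditions, and from MKOS MEFs down to MKOS 3NG- cells the levels did not overlap, whereas all later neighbors did.

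*Cdkn1a*, on chromosome 17 (chr17:29090979-29100722, plus strand), is a main target of p53, and *Mdm2* (chr10:117688875-117710758, minus strand) and *Ccng1* (chr11:40748552-40755309, minus strand), which encodes cyclin G1, a protein without a clear kinase partner that acts on MDM2, are further targets. The 250 bases before their starts in RefSeq are shown because all 3 windows held the half-site that p53 binds, which is in capitals, searched on both strands. Trp53 itself (chr11:69580348-69591873, plus strand) had a match 75 bases before its start as well.
Cdkn1a first start (chr17:29090729-29090978, plus strand): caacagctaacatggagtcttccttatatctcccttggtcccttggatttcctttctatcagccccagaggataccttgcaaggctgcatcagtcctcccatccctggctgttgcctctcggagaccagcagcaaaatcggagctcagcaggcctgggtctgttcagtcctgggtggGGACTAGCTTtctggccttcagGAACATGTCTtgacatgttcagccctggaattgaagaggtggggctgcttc
Mdm2 (chr10:117710759-117711008, minus strand): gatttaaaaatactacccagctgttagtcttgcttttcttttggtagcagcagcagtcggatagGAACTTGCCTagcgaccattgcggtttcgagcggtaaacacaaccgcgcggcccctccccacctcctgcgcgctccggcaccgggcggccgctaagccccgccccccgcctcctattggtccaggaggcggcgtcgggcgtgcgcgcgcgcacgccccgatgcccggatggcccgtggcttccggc
Ccng1 (chr11:40755287-40755536, minus strand): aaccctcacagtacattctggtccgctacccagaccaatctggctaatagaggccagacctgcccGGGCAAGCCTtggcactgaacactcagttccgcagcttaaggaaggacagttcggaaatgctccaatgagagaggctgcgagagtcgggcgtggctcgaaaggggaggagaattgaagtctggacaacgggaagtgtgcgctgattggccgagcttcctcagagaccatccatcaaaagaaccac

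The matches lay 73 and 51 bases before the first *Cdkn1a* start, 186 bases before the *Mdm2* start and 185 bases before the *Ccng1* start. The second *Cdkn1a* start had none. Of the 11 promoters of the 8 genes with an entry, 4 held a half-site, and 7.13% of all promoters of this length hold 1 or more. A match is a stretch of letters and does not show that p53 is bound there.

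*Cdkn1a* in MKOS 2NG- cells overlapped MKOS MEFs, and OKMS 2NG- cells lay below OKMS MEFs. It was at 348 and 288 CPM in WT, 419 and 568 CPM in MKOS and 654 and 766 CPM in OKMS MEFs. MKOS 2NG- cells had 539.8, 429 and 302 CPM, which overlapped MKOS MEFs, and no change was called (log2 fold change -0.24 ± 0.46, FDR 0.74, edgeR). OKMS E-CAD+ 2NG- cells had 344, 317.5 and 93.5 CPM, and E-CAD- 2NG- cells had 337, 349 and 139 CPM. Both lay below OKMS MEFs, and *Cdkn1a* fell in these steps (-1.41 ± 0.46, FDR 0.017, and -1.38 ± 0.46, FDR 0.024, edgeR). These calls were lost without either OKMS MEF library or without replicate 3 of the sorted cells (FDR 0.062 to 0.104 for E-CAD+ and 0.087 to 0.137 for E-CAD- cells). The difference between the cassettes was not called (1.17 ± 0.66, FDR 0.45, edgeR).

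With the gain of *Nanog*-GFP, *Cdkn1a* fell in OKMS, and the MKOS step just missed the threshold. OKMS E-CAD+ 3NG- cells had 517, 601 and 109 CPM and OKMS 3NG+ cells 88.4, 133 and 98.7 CPM, so that the difference was large between the libraries numbered 1 and 2 and small between those numbered 3. *Cdkn1a* fell in OKMS (-1.74 ± 0.43, FDR 0.010, edgeR), but was not called without 3NG- replicate 1 or 2 or 3NG+ replicate 1 (FDR 0.056 to 0.112) or in the fit of the compared libraries alone (FDR 0.062). MKOS 3NG- cells had 401, 356 and 256 CPM and MKOS 3NG+ cells 150.4, 81.4 and 85.4 CPM, which did not overlap, and the log2 fold change of -1.53 ± 0.42 had an FDR of 0.051 with edgeR and was called by DESeq2 (FDR 0.037). Without the 7 libraries, which include the lowest MKOS 3NG- library, *Cdkn1a* was called in MKOS (-1.69, FDR 0.00011).

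The lowest condition means were those of the TNG ESCs, and iPSCs in 2i medium, which contains inhibitors of MEK and GSK3, overlapped WT MEFs. ESCs of TNG origin had 20.9 to 27.8 CPM and E14 ESCs 59.1 and 46.0 CPM, and ESCs as a whole were lower than MEFs (-4.01 ± 0.30, FDR 4.2e-15, edgeR). In 2i, MKOS iPSCs had 370 and 239.8 CPM and OKMS iPSCs 210.5 and 301 CPM, whereas the -dox iPSCs had 28.5 and 49.5 CPM and 102 and 48.8 CPM. The groups did not overlap in either cassette, and *Cdkn1a* rose (2.25 ± 0.38, FDR 0.00016, edgeR), with a log2 fold change of 2.02 to 2.60 and a call under all 15 alternatives. It was 1 of 2 of the 10 genes called between 2i and -dox iPSCs, where 4.34% of all transcripts were called. The labels do not say whether the cells in 2i had doxycycline, so that medium and doxycycline cannot be told apart. *Cdkn2a* was not called (1.57 ± 0.55, FDR 0.099, edgeR), but was with the replicate block (FDR 0.017), without the 7 libraries (FDR 0.0036) and with no filter (FDR 7.03e-05). In these settings 4.89%, 5.86% and 5.19% of all transcripts were called, and the 7 libraries hold no iPSCs. D6 iPSCs had 138 and 102 CPM, below all iPSCs in 2i. Between -dox iPSCs and TNG MKOS and OKMS ESCs, 0 of the 10 genes were called by edgeR (1.4% of all transcripts), with 3 at an unadjusted p under 0.05, and DESeq2 called 1, which was *Cdkn1a* (1.36 higher in iPSCs on the log2 scale, FDR 0.033, against 1.30 ± 0.37, FDR 0.067, with edgeR).

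**Figure D3:**
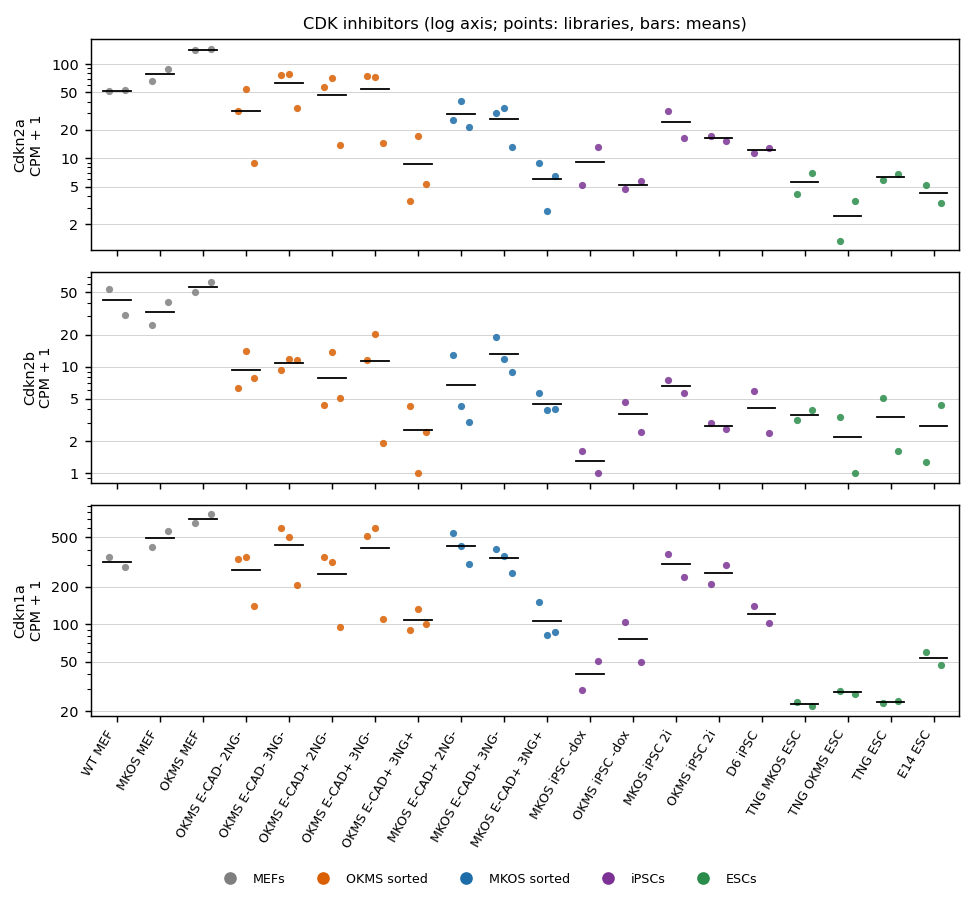
Points are the CPM + 1 of *Cdkn2a*, *Cdkn2b* and *Cdkn1a* in the 48 libraries by condition on log axes, and bars are the means. *Cdkn2b* is above 20 CPM in MEFs alone, and *Cdkn1a* is 210.5 to 370 CPM in the iPSCs in 2i against 28.5 to 102 CPM in the -dox iPSCs.

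*Trp53* rose while the transcripts of its targets *Mdm2* and *Ccng1* fell. *Trp53* was at 66.5 to 89.3 CPM in the 6 MEF libraries, and at 176 to 364 CPM (median 296 CPM) in ESCs, without overlap (1.81 ± 0.22, FDR 4.2e-09, edgeR). All 24 sorted libraries, at 91.7 CPM or more, were above all MEF libraries. *Trp53* rose from MEFs to 2NG- cells in MKOS (0.97 ± 0.37, FDR 0.046) and in OKMS E-CAD+ cells (1.44 ± 0.38, FDR 0.0031, edgeR), where the libraries had 124.5, 101 and 217 CPM and 185, 185 and 242 CPM. The MKOS call was lost without 2NG- replicate 3 (log2 fold change 0.58, FDR 0.285), without the 7 libraries (0.51, FDR 0.310), with DESeq2 (FDR 0.062), with its size factors in edgeR (FDR 0.080), with the replicate block (FDR 0.088) and without either MKOS MEF library (FDR 0.089 and 0.302). In OKMS E-CAD- 2NG- cells, at 186, 118 and 168 CPM, the step missed the threshold (0.92 ± 0.37, FDR 0.068, edgeR). After 2NG- no step was called for *Trp53*. Ordered by mean level, TNG OKMS ESCs were highest without overlap with the next condition, and all MEFs were below the other conditions without overlap. Of its reads 4.59% had several positions in the genome.

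*Mdm2* differed among MEFs. It was at 81.1 and 64.5 CPM in WT MEFs, 152 and 301 CPM in MKOS MEFs and 267 and 305 CPM in OKMS MEFs, and the transgenic MEFs lay above WT MEFs without overlap, a difference that was not tested. MKOS 2NG- cells had 63.0, 75.6 and 17.8 CPM, OKMS E-CAD+ 2NG- cells 51.6, 40.9 and 24.4 CPM and OKMS E-CAD- 2NG- cells 47.6, 44.6 and 20.4 CPM. *Mdm2* fell in the 3 steps, in MKOS (-2.13 ± 0.49, FDR 0.00092), in OKMS E-CAD+ (-2.78 ± 0.50, FDR 3.6e-05) and in OKMS E-CAD- cells (-2.95 ± 0.50, FDR 2.7e-05, edgeR), and the calls held in all 12 alternatives. These folds are relative to the transgenic MEFs. The WT MEFs lay inside the range of the MKOS 2NG- libraries or just above it. ESCs had 27.1 to 88.2 CPM, and *Mdm2* was lower in them than in MEFs as a whole (-1.74 ± 0.29, FDR 2.3e-06, edgeR), although the WT MEFs lay inside the ESC range. In the order of mean levels the OKMS and MKOS MEFs stood above the rest, and all neighbors further down overlapped.

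*Ccng1* was at 235 to 275 CPM in WT and MKOS MEFs and at 468 and 635 CPM in OKMS MEFs, which stood above all other conditions without overlap. MKOS 2NG- cells had 118, 109 and 45.9 CPM, and the OKMS 2NG- cells had 129, 139 and 44.2 CPM (E-CAD+) and 139, 157 and 84.0 CPM (E-CAD-). All 2NG- libraries were below the lowest MEF library. *Ccng1* fell in MKOS (-1.56 ± 0.43, FDR 0.0053), in OKMS E-CAD+ (-2.32 ± 0.43, FDR 6.1e-05) and in OKMS E-CAD- cells (-2.14 ± 0.43, FDR 0.00026, edgeR), and the calls held in all 12 alternatives. ESCs had 38.3 to 163 CPM (-2.18 ± 0.26, FDR 1.7e-09, edgeR).

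With the gain of *Nanog*-GFP the log2 fold changes of *Mdm2* were -1.15 ± 0.45 in MKOS and -1.19 ± 0.46 in OKMS, and those of *Ccng1* were -1.24 ± 0.40 and -0.87 ± 0.40, none of them called (FDR 0.096 to 0.20, edgeR). Without the 7 libraries, all 4 were called (FDR 0.0023 to 0.0065 for *Ccng1* and 9.6e-05 to 0.0039 for *Mdm2*). In that setting 6 genes were called in each cassette, namely *Cdkn2a*, *Cdkn1a*, *Mdm2*, *Ccng1*, *Ccnd1* and *Ccnd2*, and the share of all transcripts called was also larger, at 3.62% in MKOS and 9.47% in OKMS. Over the 20 condition means, which share their libraries and their scaling, Pearson's r of log2 CPM was 0.85 between *Mdm2* and *Ccng1*, 0.64 between *Cdkn1a* and *Ccng1* and 0.41 between *Cdkn1a* and *Mdm2*, as a description. *Trp53* had an r of -0.73 with *Cdkn1a*, -0.74 with *Ccng1* and -0.57 with *Mdm2*.

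**Figure D4:**
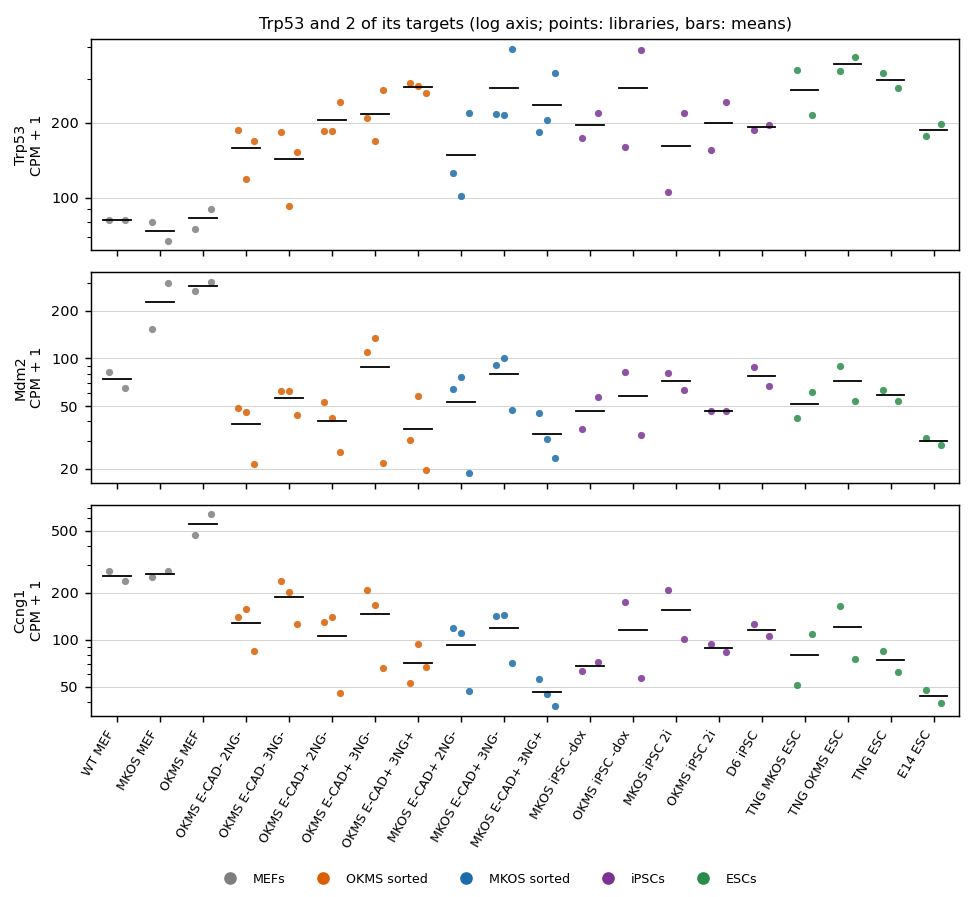
Points are the CPM + 1 of *Trp53*, *Mdm2* and *Ccng1* in the 48 libraries by condition on log axes, and bars are the means. MEFs hold the lowest *Trp53* levels, at 66.5 to 89.3 CPM, and the highest condition means of *Ccng1*, at 235 to 635 CPM by library.

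Over the 20 condition means the D-type cyclin genes *Ccnd1* and *Ccnd2* moved together (Pearson's r 0.91). *Ccnd3* did not move with them (-0.35 with *Ccnd1* and -0.45 with *Ccnd2*). *Ccnd2* (chr6:127125162-127152188), *Ccnd1* (chr7:144929931-144939831) and *Ccnd3* (chr17:47505051-47599689) encode cyclins D2, D1 and D3. *Ccnd2* was high in MEFs and lowest in iPSCs. It was at 323 to 712 CPM in MEFs, at 196, 121 and 52.4 CPM in MKOS 2NG- cells and at 213, 117 and 54.0 CPM in MKOS 3NG- cells. MKOS 3NG+ cells had 41.4, 8.69 and 19.6 CPM, and the 10 iPSC libraries had 0.104 to 6.74 CPM (median 2.14 CPM). D6 iPSCs were the lowest condition, at 0.104 and 0.350 CPM, where 3 reads are worth 0.311 and 0.263 CPM. ESCs had 5.67 to 24.5 CPM and were lower than MEFs (-5.29 ± 0.42, FDR 4.6e-14, edgeR).

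OKMS E-CAD+ 2NG- cells had 186, 189 and 59.6 CPM, and *Ccnd2* fell in the steps from MEFs to E-CAD+ 2NG- cells, in MKOS (-1.60 ± 0.62, FDR 0.049) and in OKMS (-1.96 ± 0.62, FDR 0.014, edgeR). The MKOS call was lost without 2NG- replicate 2 or 3 or either MKOS MEF library (FDR 0.076 to 0.224), with library totals (FDR 0.057) and with DESeq2 (FDR 0.059), and the OKMS call without 2NG- replicate 3 or MEF replicate 2 (FDR 0.076 and 0.082). OKMS E-CAD- 2NG- cells had 403, 277 and 260.1 CPM, and no change from OKMS MEFs was called there (-0.94 ± 0.61, FDR 0.28, edgeR). From 2NG- to 3NG- cells no change was called in MKOS (-0.01 ± 0.56) or in OKMS E-CAD+ cells, where the log2 fold change was 1.32 ± 0.57 (FDR 0.94, edgeR) and was called with no filter on low counts (FDR 4.3e-05). Without the filter, 0.754% of all transcripts were called in this OKMS step, against 0.0384% in the main fit. The OKMS E-CAD- 3NG- libraries, at 689, 508 and 327 CPM, overlapped those of E-CAD- 2NG- cells. With the gain of *Nanog*-GFP it fell in MKOS (-2.35 ± 0.60, FDR 0.030) and in OKMS (-3.90 ± 0.65, FDR 0.00012, edgeR). In OKMS the levels were 548, 527 and 43.6 CPM in E-CAD+ 3NG- cells and 25.0, 32.2 and 10.0 CPM in 3NG+ cells, without overlap, and the call held in all 13 alternatives. In MKOS it was lost without 3NG- replicate 1 or 2 or 3NG+ replicate 2 or 3 (FDR 0.072 to 0.243). From 3NG+ cells to -dox iPSCs *Ccnd2* fell again (-2.59 ± 0.56, FDR 0.0041, edgeR), with 2 of the 10 genes called and 3.29% of all transcripts. This call was lost without replicate 1 of either iPSC condition (FDR 0.059 and 0.051). Summed fibroblast markers were 105 to 598 CPM in the 3NG+ and 6.59 to 27.8 CPM in the -dox iPSC libraries. In this step 8 of the 11 fibroblast markers were called lower, and their part in the fall of *Ccnd2* was not tested. Between the cassettes in 3NG- cells *Ccnd2* was not called (-1.62 ± 0.57, lower in MKOS, FDR 0.14, edgeR), but was called without the 7 libraries (-1.77, FDR 0.032), without OKMS 3NG- replicate 3 alone (-2.14, FDR 0.020) and with no filter (FDR 1.44e-08). Without the filter, 4.37% of all transcripts were called there, against 2.17% in the main fit.

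*Ccnd1* was higher in MEFs and *Nanog*-GFP- cells than in 3NG+ cells. Levels were 98.4 and 98.8 CPM in MKOS MEFs, 112, 137 and 156 CPM in MKOS 2NG-, 95, 120.4 and 93.9 CPM in 3NG- and 34.1, 17.8 and 54.4 CPM in 3NG+ cells. OKMS MEFs had 230.1 and 327 CPM, E-CAD+ 2NG- cells 116, 123 and 55.9 CPM, 3NG- cells 182, 215 and 63.3 CPM and 3NG+ cells 53.8, 40.6 and 56.5 CPM. The 3NG+ libraries did not overlap the 3NG- libraries in either cassette. *Ccnd1* fell with the gain of *Nanog*-GFP by 1.36 ± 0.37 in MKOS and by 1.37 ± 0.38 in OKMS on the log2 scale (FDR 0.050 and 0.021, edgeR). The MKOS call was lost without any 1 of 5 of the 6 libraries compared (FDR 0.066 to 0.292, MKOS 3NG+ replicate 3 excepted), and the OKMS call without 3NG- replicate 1 or 2 or 3NG+ replicate 1 or 2 (FDR 0.068 to 0.173) and in the fit of the compared libraries alone (FDR 0.064). From MEFs to 2NG- cells it fell in OKMS E-CAD+ cells (-1.41 ± 0.40, FDR 0.0067, edgeR, lost without OKMS MEF replicate 2 at an FDR of 0.063) and did not pass in MKOS (0.41 ± 0.41, FDR 0.49). Here MKOS 2NG- cells lay above MKOS MEFs and OKMS 2NG- cells below OKMS MEFs, and the difference between these steps was 1.82 ± 0.58 (FDR 0.11, edgeR). ESCs had 22.4 to 89.6 CPM and were lower than MEFs (-1.69 ± 0.24, FDR 1.1e-07, edgeR). All neighbors in the order of *Ccnd1* overlapped.

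*Ccnd3* separated the cassettes in sorted E-CAD+ cells, but not in the same direction in all unsorted cells. MKOS 2NG- cells had 51.0, 48.4 and 59.2 CPM against 22.3, 24.2 and 23.0 CPM in OKMS E-CAD+ 2NG- cells, and MKOS 3NG- cells had 74.2, 88.3 and 85.4 CPM against 45.7, 32.4 and 33.9 CPM in OKMS E-CAD+ 3NG- cells. There was no overlap in either pair. *Ccnd3* was higher in MKOS by 1.10 ± 0.26 in 2NG- cells (FDR 0.0077) and by 1.02 ± 0.26 in 3NG- cells (FDR 0.023, edgeR). In 2NG- cells 2 of the 10 genes were called (5.07% of all transcripts) and in 3NG- cells 1 (2.17%). The 2NG- call was lost only without the 7 libraries (FDR 0.069), among 13 alternatives, and the 3NG- call without replicate 2 or 3 of either condition (FDR 0.059 to 0.125) and without the 7 libraries (FDR 0.11). In 3NG+ cells the values were 120.1, 82.6 and 106 CPM in MKOS and 48.8, 76.2 and 47.5 CPM in OKMS, again without overlap. *Ccnd3* was higher in MKOS by 0.70 ± 0.26 there but was not called (FDR 0.23, edgeR). In 3NG+ cells 0 of the 10 genes were called by edgeR or by DESeq2 (0.685% of all transcripts), and *Ccnd3* was the 1 gene at an unadjusted p under 0.05. Among unsorted cells, MKOS MEFs (59.2 and 61.6 CPM) lay below OKMS MEFs, which was not called (-0.36 ± 0.31, FDR 0.97, edgeR). TNG MKOS ESCs (46.7 and 50.0 CPM) lay below TNG OKMS ESCs (57.5 and 63.0 CPM). For -dox iPSCs, MKOS (69.1 and 73.3 CPM) lay inside OKMS (30.7 and 95.3 CPM). In 2i, MKOS iPSCs (86.3 and 90.0 CPM) lay above OKMS iPSCs (61.7 and 82.3 CPM). The ESC and iPSC pairs were not tested. *Ccnd3* also fell from OKMS MEFs (68.7 and 93.9 CPM) to OKMS 2NG- cells, by 1.69 ± 0.29 in E-CAD+ cells and by 1.69 ± 0.29 in E-CAD- cells (FDR 1.5e-05 and 2.5e-05, edgeR), in all 12 alternatives, and it did not pass in MKOS (-0.23 ± 0.29, FDR 0.58). The difference between the cassettes in this step had an FDR of 0.062 with edgeR and 0.017 with DESeq2. ESCs differed little from MEFs (-0.41 ± 0.17, FDR 0.035, edgeR), and that call was lost without any 1 of 7 of the 14 libraries, E14 ESC replicate 1 and MKOS MEF replicate 1 among them (FDR 0.056 to 0.099). Of the reads of *Ccnd3* 27.6% had several positions in the genome, the largest share among the 10 genes, so that its level carries a share of reads that cannot be placed.

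*Ccne1* (chr7:38097984-38107490) was low in MEFs and high in ESCs. It was at 10.4 to 14.6 CPM in MEFs (median 12.7 CPM) and at 54.5 to 149 CPM (median 69.3 CPM) in ESCs, higher by 2.67 ± 0.19 on the log2 scale (FDR 7.7e-16, edgeR). MKOS 2NG- cells, at 11.5, 16.4 and 14.4 CPM, were at the level of MEFs (0.11 ± 0.30, FDR 0.84, edgeR), and the other 7 sorted conditions had 21.2 to 50.2 CPM. The libraries of these MKOS cells and of the 3 kinds of MEFs lay below all other libraries. OKMS E-CAD+ 2NG- cells had 38.0, 33.8 and 37.5 CPM, and *Ccne1* was lower in MKOS than in OKMS 2NG- cells (-1.47 ± 0.26, FDR 0.00032, edgeR) in all 13 alternatives. It rose from OKMS MEFs (13.9 and 14.4 CPM) to E-CAD+ 2NG- cells (1.48 ± 0.30, FDR 0.00022, in all 12 alternatives) and to E-CAD- 2NG- cells, at 21.2, 45.3 and 29.5 CPM (1.12 ± 0.30, FDR 0.0056, edgeR). The E-CAD- call was lost without E-CAD- 2NG- replicate 2 or OKMS MEF replicate 2 (FDR 0.063 and 0.085). The difference between the steps from MEFs to E-CAD+ 2NG- cells was -1.37 ± 0.42 with an FDR of 0.094 with edgeR and 0.044 with DESeq2. Summed fibroblast markers were 446 to 843 CPM in MKOS and 77.4 to 294 CPM in OKMS E-CAD+ 2NG- libraries. Of these 11 markers 5 were called higher in MKOS, where 5.07% of all transcripts were called. Their part in the differences of *Ccne1* and *Ccnd3* between the cassettes was not tested.

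In MKOS the rise of *Ccne1* came with ICAM1. MKOS 3NG- cells had 32.3, 41.1 and 32.7 CPM, without overlap with MKOS 2NG- cells, and *Ccne1* was the 1 gene of the 10 called in this step (1.25 ± 0.26, FDR 0.013, edgeR). The call was lost without any of the 3 MKOS 2NG- libraries, without 3NG- replicate 2 and without the 7 libraries (FDR 0.059 to 0.151, log2 fold change 1.13 to 1.35). In OKMS E-CAD+ cells the same step was 0.03 ± 0.26 (3NG- cells at 41.0, 33.1 and 41.9 CPM), and the difference between these steps was not tested. Between 3NG- and 3NG+ cells *Ccne1* was not called in either cassette (FDR 0.60 and 0.62, edgeR). From 3NG+ cells to -dox iPSCs it rose by 0.70 ± 0.20 (FDR 0.040, edgeR), a call that was lost in 10 of 17 alternatives (FDR up to 0.197), namely without replicate 1 or 2 of 3NG+ cells of either cassette, MKOS iPSC replicate 2 or either OKMS iPSC library, without the 7 libraries, with no filter and in the fit of the compared libraries alone, and OKMS iPSCs (54.4 and 57.4 CPM) lay above all 3NG+ libraries. In 2i it was lower than in -dox iPSCs, at 31.1 and 40.3 CPM against 63.9 and 88.2 CPM in MKOS iPSCs and at 28.0 and 33.9 CPM against 54.4 and 57.4 CPM in OKMS iPSCs (-1.07 ± 0.22, FDR 0.0023, edgeR, in all 15 alternatives). iPSCs in 2i and D6 iPSCs (26.1 and 34.1 CPM) therefore had less *Ccne1* than all ESC libraries.

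**Figure D5:**
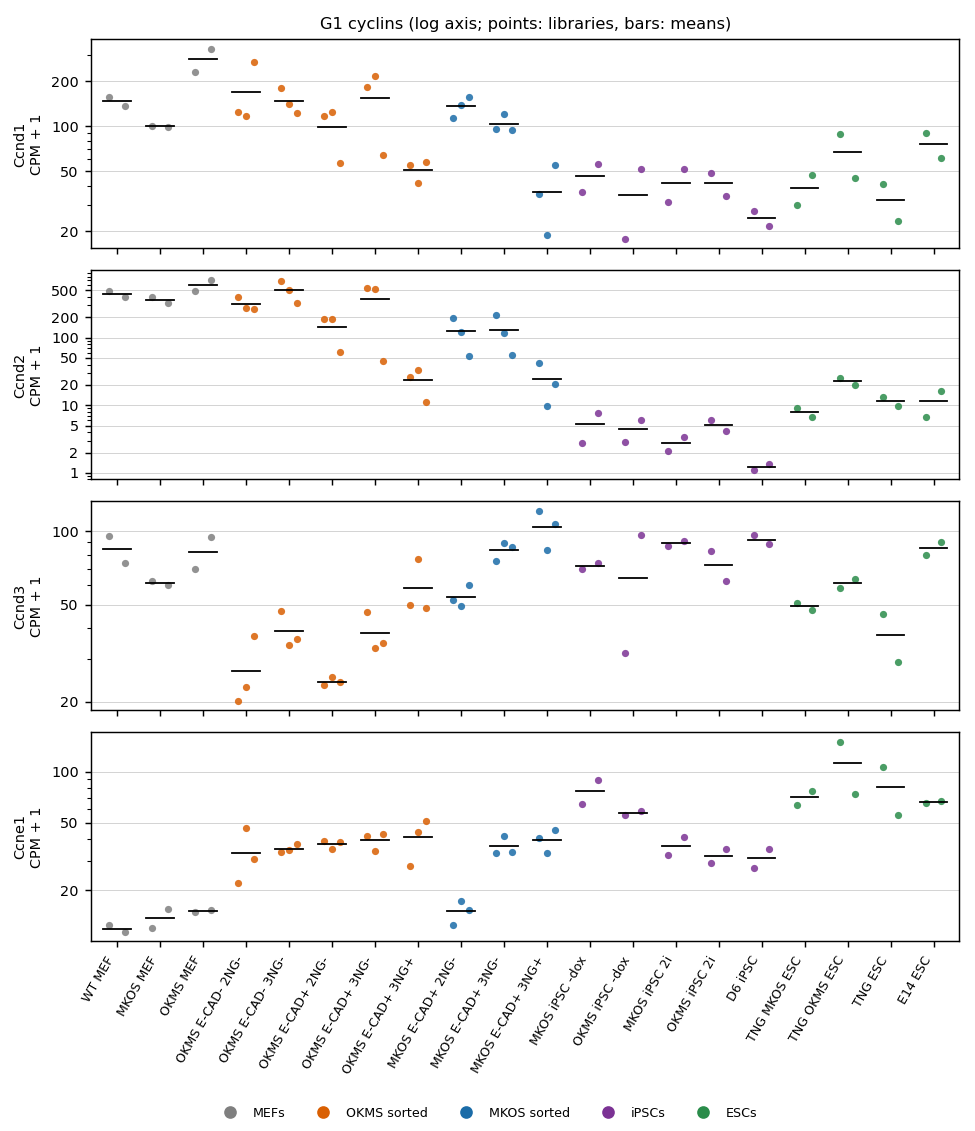
Points are the CPM + 1 of *Ccnd1*, *Ccnd2*, *Ccnd3* and *Ccne1* in the 48 libraries by condition on log axes, and bars are the means. *Ccne1* in MKOS E-CAD+ 2NG- cells (11.5 to 16.4 CPM) sits with MEFs (10.4 to 14.6 CPM), and *Ccnd3* in OKMS E-CAD+ 2NG- cells (22.3 to 24.2 CPM) has the lowest condition mean.

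Between E-CAD+ and E-CAD- *Nanog*-GFP- cells of OKMS no gene was called. With 2NG- and 3NG- cells averaged, edgeR called 0 genes and DESeq2 0 (7.08% of all transcripts), and 1 gene, *Trp53*, had an unadjusted p under 0.05 (0.61 ± 0.23 higher in E-CAD+ cells, FDR 0.096). The log2 differences were -0.01 ± 0.29 for *Cdkn1a*, 0.28 ± 0.41 for *Cdkn2a* and -0.69 ± 0.40 for *Ccnd2*. As the difference of *Trp53* was not called either, differences well above the size of these errors could also be missed. MKOS and OKMS MEFs, the starting cells, also had 0 genes called by edgeR and by DESeq2 (0.102% of all transcripts), with 2 at an unadjusted p under 0.05, *Ccnd1* (-1.43 ± 0.45) and *Ccng1* (-1.01 ± 0.48). Both were higher in OKMS MEFs and were called in the fit of the compared libraries alone (FDR 0.0023 and 0.043). Further calls made without the 7 libraries were *Ccnd1* from OKMS MEFs to E-CAD- 2NG- cells (-1.21, FDR 0.017), *Cdkn1a* (-0.89, FDR 0.0070) and *Mdm2* (0.84, FDR 0.026) from 3NG+ cells to -dox iPSCs, and *Cdkn1a* (1.32, FDR 0.00022) and *Ccnd2* (-1.57, FDR 0.021) between -dox iPSCs and TNG MKOS and OKMS ESCs. This last comparison used the same iPSC and ESC libraries as the main fit, where the log2 fold changes were 1.30 and -1.58. The share of all transcripts called in it was 2.52%, against 1.40% in the main fit.

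Other genes of the pathway were counted in lists that were chosen with earlier results known. Between ESCs and MEFs, 4 of 5 other CDK inhibitor genes fell and 0 rose, where 30.4% of all transcripts fell and 29.6% rose, with *Cdkn2c* (p18, -5.54 ± 0.82), *Cdkn1c* (p57, -2.08 ± 0.51) and *Cdkn3* (a phosphatase of CDKs, -1.0 ± 0.19) among them. In MKOS 2NG- cells against MKOS MEFs, 2 of the 5 fell (12% of all transcripts), *Cdkn1c* (-6.42 ± 1.02, FDR 5.4e-06) and *Cdkn2c* (-3.28 ± 1.14, FDR 0.029, edgeR). Of 25 CDK, RB, E2F and other G1-S genes, 16 rose and 1 fell from MEFs to ESCs, against 29.6% and 30.4% of all transcripts, with a median log2 fold change of 0.94 against 0 over all transcripts tested. Examples were *Mcm2*, a subunit of the replicative helicase (2.68 ± 0.18), *E2f4*, an E2F factor known for repression (1.93 ± 0.20) and *Ccna2*, cyclin A2 of S phase (1.43 ± 0.16). In MKOS 2NG- cells 7 of the 25 rose and 0 fell (15% and 12% of all transcripts), among them *Cdc6*, a licensing factor of replication origins (4.0 ± 0.57), and *E2f2* (3.54 ± 0.77). In 2NG- cells *Cdk4*, the partner of D cyclins, was lower in MKOS than in OKMS (-1.38 ± 0.26, FDR 0.00067, edgeR), the 1 gene of this list called between the cassettes.

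Of 21 regulators of p53, 11 rose and 2 fell from MEFs to ESCs, against 29.6% and 30.4% of all transcripts, with the DNA damage kinase gene *Chek2* (2.88 ± 0.23), the deubiquitinase gene *Usp7* (2.04 ± 0.17) and *Npm1*, nucleophosmin (1.75 ± 0.16) as the strongest by FDR. In MKOS 2NG- cells 7 rose and 0 fell (15% and 12% of all transcripts), and *Rpl5*, a ribosomal protein that can bind MDM2 (1.23 ± 0.18), and the checkpoint kinase gene *Chek1* (1.73 ± 0.32) were among them. Of 34 other p53 target genes, 9 rose and 12 fell from MEFs to ESCs (median -0.26), which is close to the 29.6% and 30.4% of all transcripts. The 3 with the smallest FDR were *Btg2* (-3.26 ± 0.32), the death receptor gene *Fas* (-7.29 ± 0.73) and *Phlda3* (-2.38 ± 0.27), all lower in ESCs. In MKOS 2NG- cells 4 rose and 8 fell, beside 15% and 12% of all transcripts, and the risers *Sfn* (9.59 ± 1.03) and *Perp* (4.48 ± 0.91) are also known as epithelial genes. In OKMS E-CAD+ 2NG- cells 4 rose and 12 fell (median -0.79), beside 15.7% and 13.5% of all transcripts. The cassettes differed in *Bax*, a gene of mitochondrial apoptosis, which was lower in MKOS 2NG- cells (-0.63 ± 0.19, FDR 0.047, edgeR).

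Known regulators of the INK4-ARF locus changed in both directions. Of 26 tested, 9 rose and 14 fell from MEFs to ESCs, and the share that rose is close to the 29.6% of all transcripts (30.4% fell). The Polycomb genes *Cbx7* (6.29 ± 0.42) and *Eed* (2.54 ± 0.16) rose, and *Hmga2*, a chromatin protein gene of embryonic mesenchyme (-6.47 ± 0.25), fell. In MKOS 2NG- cells, where 15% of all transcripts rose and 12% fell, 5 rose, with the Polycomb gene *Suz12* (1.44 ± 0.31) among them, and 8 fell, with *Id1*, an inhibitor of helix-loop-helix factors (-3.71 ± 0.65) and *Hmga2* (-1.58 ± 0.34). Between the cassettes *Tbx3*, a repressor of the locus, was higher in MKOS 2NG- cells (1.87 ± 0.48, FDR 0.013), and *Cbx7* was lower (-1.72 ± 0.47, FDR 0.022, edgeR).

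The transcripts whose condition means followed each gene most closely are given as a description over 20 conditions that share libraries and scaling. *Cdkn1a* was followed by *Ephx1*, *Tmbim1* and *Gng12* (Pearson's r 0.94, 0.94 and 0.93), *Cdkn2a* by *1500003O03Rik*, *Reep5* and *Phc2* (0.93, 0.93 and 0.92) and *Cdkn2b* by *Itm2c*, *Mbnl2* and *Rit1* (0.95, 0.94 and 0.94). *Trp53* was followed by *Ttc27*, *Utp14a* and *Nop58* (0.95, 0.95 and 0.95), *Mdm2* by *Wnt9a*, *Traf5* and *Pcdhgb7* (0.93, 0.92 and 0.89) and *Ccng1* by *Gpx3*, *Cd81* and *Cfl2* (0.93, 0.92 and 0.91). Among the cyclins *Ccnd2* stood second on the list of *Ccnd1* (0.91), between *1300014I06Rik* (0.92) and *A430105I19Rik* (0.91). *Ccnd2* itself was followed by *Ptpla*, *Hs6st2* and *Ly96* (0.95, 0.95 and 0.93), *Ccnd3* less closely by *Mitf*, *Wnk1* and *Fbxo6* (0.88, 0.88 and 0.87) and *Ccne1* by *Larp4*, *E2f4* and *Mycn* (0.94, 0.93 and 0.93).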

How the data were processed

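STRT libraries of 48 samples in 20 conditions were analysed. The deposited values were raw read counts per transcript, made by the authors with Bowtie 0.12.7. The labels name mm10 and the study's methods mm9; gene positions in the table matched GRCm38 within 200 bases for 99.07% of 20698 shared symbols, so GRCm38 is used here. The 1554 repeat and 104 spike rows were left out. Of transcript reads, 73.9% had a unique position.

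Counts were fitted with edgeR 4.0.16 (R 4.3.3; TMM, filterByExpr, quasi-likelihood test, 1 mean per condition, common dispersion 0.217) and compared as contrasts. Depth was 1429717 to 14174725 reads. Floors of 3 reads cover counting error only. Neither labels nor methods say whether replicates were separate cultures, so p-values measure the spread between these libraries, which may be technical. Alternatives were DESeq2 1.42.0 as test or as size factors, library totals, no filter on low counts, a fit of the compared libraries alone, the replicate number as a block, leaving out 7 sorted libraries, and leaving out each library in turn (with the filter and dispersion trend of the full fit). The fits were tested on simulated data.

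Over all transcripts, same-numbered libraries deviated together most clearly in MKOS 3NG- against 2NG- cells (correlations 0.238, 0.104 and 0.352). There the replicate block left the single call in place. In OKMS E-CAD+ 3NG- against 2NG- cells the correlations were 0.092, 0.162 and 0.328. For *Cdkn2a*, *Cdkn1a*, *Mdm2*, *Ccng1* and *Ccnd2*, replicate 3 was the lowest in 6 of 6 sorted *Nanog*-GFP- conditions. The main fit has no block, and the block changed the number of genes called in other comparisons, given below. The 10 genes and the wider lists were chosen with earlier results of these data known. Named beside the 10 genes were the 3 transcripts with the highest Pearson's r of mean log2 CPM (prior count 2) to each, and up to 3 called genes of smallest FDR per list in 3 comparisons (ESCs with MEFs, MKOS 2NG- cells with MKOS MEFs, and MKOS with OKMS 2NG- cells). Promoters came from RefSeq (GRCm38.p6).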

Additional observations from a re-analysis of the deposited data

How the results depend on the processing

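Of 45 calls among 180 pairs of gene and comparison, 43 were kept with the DESeq2 test, 44 with its size factors, 44 with library totals, 44 with no filter, 41 in fits of the compared libraries alone, 44 with the replicate block and 39 without the 7 sorted libraries. With no filter 29 further calls were gained, more than in any other of these settings. No called fold change turned its sign. Leaving out 1 library lost 69 of 341 calls and gained 11. The causes were not tested.

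The number of the 10 genes called is given where it changed by over 1.5 times, with its range on leaving out 1 library in brackets. Smaller changes included those from 9 to 10 with the replicate block (6 to 10) from OKMS MEFs to E-CAD+ 2NG- cells, from 2 to 3 with the block, with no filter and without the 7 libraries between 2i and -dox iPSCs, and from 10 (9 to 10) between ESCs and MEFs. From MKOS MEFs to 2NG- cells it was 5, and 3 with DESeq2 (2 to 5 leaving out 1 library); from OKMS MEFs to E-CAD- 2NG- cells 7 (4 to 7). For MKOS 3NG- against 2NG- cells it was 1, and 0 without the 7 libraries (0 to 1), and for OKMS 0, and 2 with no filter. With the gain of Nanog-GFP it was 2 in MKOS, 4 with library totals, 6 with no filter, 6 with the replicate block, 6 without the 7 libraries, 5 in the fit of the compared libraries alone and 4 with DESeq2 (0 to 3), while the share of all transcripts called was 1.58%, 2.40%, 4.49%, 2.67%, 3.62%, 4.57% and 3.21%. In OKMS it was 4, 7 with no filter and 1 in the fit of the compared libraries alone (1 to 6), at 6.26%, 7.35% and 3.84% of all transcripts. Between the cassettes it was 2 in 2NG- cells and 1 without the 7 libraries, and 1 in 3NG- cells and 3 with no filter (0 to 1). Between E-CAD+ and E-CAD- cells it was 0, and 2 with no filter. From 3NG+ cells to iPSCs it was 2 (0 to 2). Between iPSCs and ESCs it was 0, 3 with no filter, 1 with the replicate block, 2 without the 7 libraries, 1 in the fit of the compared libraries alone and 1 with DESeq2 (0 to 1). Between MKOS and OKMS MEFs it was 0, 1 with no filter and 2 in the fit of the compared libraries alone. For the difference between the cassettes from MEFs to 2NG- cells it was 0, 1 with library totals, 3 with no filter, 2 in the fit of the compared libraries alone and 2 with DESeq2, and with the gain of Nanog-GFP 0, and 1 with no filter.

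Library totals moved the median of all transcripts by up to 0.210 on the log2 scale (-0.210 with the gain of Nanog-GFP in OKMS). Low counts limit Cdkn2b in 3NG+ and pluripotent cells and Ccnd2 in iPSCs.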
